A study of Mustela putorius furo with 2 samples.

Results

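The genes described here are 6 genes of the cytoskeleton tied to lissencephaly or neuronal heterotopia: PAFAH1B1, NDEL1, NDE1, TUBA1A, MAP1B and FLNA. They were chosen by symbol among the 28156 features of both count matrices, 14296 of which carry a symbol, and each of the 6 had 1 row. The tissue was somatosensory cortex, folded in this species, of ferrets (Mustela putorius furo) labelled DCX knockout, although the series text speaks of a knockdown. Nuclei isolated from frozen tissue were profiled with a droplet RNA-seq assay that counts unique molecular identifiers (UMIs), one for each captured transcript. One library came from the upper band of the cortex and 1 from the deeper band, so both groups carry the DCX genotype and wild-type cortex was not analysed here. The animals' age and number, and whether both bands came from 1 animal, are not given in the sources used here.

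In lissencephaly the cortex is smooth because neurons fail to reach their layers, and in heterotopia they settle in the wrong place. Doublecortin, the DCX product, binds microtubules in migrating neurons. PAFAH1B1 encodes LIS1, which binds the motor dynein and, with the scaffold proteins NDE1 and NDEL1, lets it pull the nucleus along microtubules. TUBA1A is an alpha-tubulin of which microtubules are built, MAP1B binds and stabilises microtubules in growing axons, and FLNA (filamin A) crosslinks actin. All 6 are best known for their roles in development, while the nuclei measured here were sorted into classes of cortical neurons and glia.

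After filtering, 6248 nuclei of the upper band and 8211 of the deeper band remained, with 52203793 and 54088726 UMIs and median depths of 7979.5 and 4952 UMIs per nucleus. The libraries shared 24 cell barcodes, 16 of them among the nuclei kept. Classes were rebuilt from marker genes and are named for resemblance only, with the 6 genes and the related lists kept out of both the clustering and the markers. The largest were excitatory neuron-like (3167 and 3467 nuclei), inhibitory neuron-like (1019 and 785), oligodendrocyte-like (833 and 1988) and astrocyte-like nuclei (387 and 807). Oligodendrocyte precursor-like (126 and 194), vascular-like (267 and 154) and microglia-like nuclei (55 and 71, led by the immune genes IKZF1 and FLI1) were few. Clusters holding 394 (6.31%) and 745 (9.07%) of the nuclei stayed unnamed. Levels are given in CPM, the usual scaling of a gene's UMIs to the total of its class, upper band first. Each band is 1 library, so no difference has a replicate check, an effect of band cannot be told apart from one of animal or library, and the 95% intervals cover counting error only.

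NDE1 (ENSMPUG00000014295) was highest, among the named classes, in oligodendrocyte-like nuclei. It stood there at 62.3 CPM (95% Poisson interval 51.8 to 74.3, 124 UMIs) in the upper band and 74.1 CPM (65.9 to 83.2, 292 UMIs) in the deeper band. Excitatory neuron-like nuclei, which held most of the UMIs of both libraries, had 14 and 8 NDE1 UMIs, or 0.377 CPM (0.206 to 0.633) and 0.208 CPM (0.0900 to 0.411). The ratio of the oligodendrocyte-like to the excitatory level was 165-fold in the upper band (log2 7.37, exact interval 6.57 to 8.28) and 356-fold in the deeper band (8.47, 7.48 to 9.70). Of the 14157 and 14221 genes measured for that ratio, 41 (0.290%) and 23 (0.162%) had a higher one. Genes measured here had at least 50 UMIs over both classes together. NDE1 passed that limit only through its oligodendrocyte-like UMIs, so its rank is a description and adds no support to the ratio. By fold, NDE1 stood beside the myelin genes MOBP (256-fold and 347-fold) and MBP (94.0-fold and 154-fold) and the oligodendrocyte membrane protein gene OPALIN (186-fold and 292-fold). These genes were among the markers that named the class, so their folds were high by its definition. They serve only as a scale for the NDE1 fold.

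Precursor- and astrocyte-like nuclei were low in NDE1. Oligodendrocyte precursor-like nuclei, the cells from which oligodendrocytes form, had 1 NDE1 UMI in each band, and the mature class stood 23.2-fold (4.09 to 925) and 35.3-fold (6.29 to 1399) above them. Astrocyte-like nuclei had 0 and 3 UMIs. Against the limit that a count of 0 allows (3 UMIs), the oligodendrocyte-like level was at least 24.9-fold higher in the upper band, and it was 49.2-fold higher (16.7 to 240) in the deeper band. Inhibitory neuron-like nuclei had 2 and 6 UMIs. The summed oligodendrocyte markers (11 of 12 listed have a row) moved with them, from 97.5 to 164 CPM, and their part in this count was not tested.

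Vascular-like nuclei held 18 and 4 NDE1 UMIs (31.3 and 16.9 CPM). The same nuclei carried oligodendrocyte markers at 1784 and 557 CPM, against 13353 and 13582 CPM in the oligodendrocyte-like class, and their part in the NDE1 level was not tested. The 3 and 2 UMIs of microglia-like nuclei, or 30.4 CPM (6.26 to 88.8) and 22.1 CPM (2.68 to 79.9), are too few to place. After thinning every nucleus to 1500 UMIs, an NDE1 UMI was seen in 8.10% (exact binomial interval 6.25 to 10.3%) and 9.59% (8.18 to 11.2%) of oligodendrocyte-like nuclei, against 0.0952% and 0% (0 of 3462 nuclei, which allows, at 3 counts of the total, a share of up to 0.0867%) of excitatory nuclei. Unthinned, 13.1% and 12.9% of the former (median depth 2204 and 1853.5 UMIs) and 0.442% and 0.231% of the latter (10752 and 10401 UMIs) had one. Thinning left out 80 and 414 oligodendrocyte-like and 16 and 5 excitatory nuclei.

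NDE1 also varied among the clusters that raise oligodendrocyte markers. The cluster led by NEK2 and CASR stood at 73.7 CPM (59.5 to 90.1) and 87.7 CPM (74.3 to 103), and the cluster led by OPALIN at 42.0 CPM (28.3 to 59.9) and 63.6 CPM (53.5 to 75.01). The unnamed cluster whose leading genes were ABCA9 and EGFLAM, which has oligodendrocyte markers and also ENPP6, a marker of newly formed oligodendrocytes, had the highest NDE1 level of any group, 88.5 CPM (56.7 to 132) and 130 CPM (111 to 151). In the deeper band, where it held 537 nuclei, the oligodendrocyte-like class stood below it by a log2 ratio of -0.81 (-1.08 to -0.52). In the upper band, with 94 nuclei and 24 UMIs, that ratio was -0.51 (-1.15 to 0.19). The oligodendrocyte-like class alone held 124 of 271 (45.8%) and 292 of 547 (53.4%) of the NDE1 UMIs. Together with the 3 unnamed clusters, all of which raise oligodendrocyte markers, it held 233 (86.0%) and 523 (95.6%). These shares are not shares of a lineage, since the 3 clusters could not be named. The unnamed clusters held 109 and 231 UMIs. The unnamed cluster led by SLC14A1 and NWD1 held 37 and 17 of these, and that led by FGD2 and IL7R 48 and 46. Their nuclei were deeper, with medians of 5397.5 and 4250.5 UMIs in the former and 5597.5 and 4890 in the latter, against 2204 and 1853.5 in the named class. Whether these 2 clusters belong to the oligodendrocyte lineage was not tested.

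Summed over all nuclei, NDE1 was higher in the deeper band, at 10.1 against 5.19 CPM, for a log2 ratio (deeper over upper) of 0.96 (0.75 to 1.18). Within oligodendrocyte-like nuclei the ratio was 0.25 (-0.06 to 0.57), which counting error alone could give. The cluster led by OPALIN had a ratio of 0.60 (0.02 to 1.22) and that led by NEK2 one of 0.25 (-0.13 to 0.64). The OPALIN-led cluster, the lower in NDE1, made up 45.7% and 65.9% of the class. The oligodendrocyte-like share of nuclei was 13.3% in the upper and 24.2% in the deeper band.

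NDEL1 (ENSMPUG00000007942), the paralog that shares the LIS1- and dynein-binding role of NDE1, did not follow this pattern. It stood at 22.6 CPM (21.1 to 24.2) and 25.4 CPM (23.8 to 27.1) in excitatory nuclei, at 27.2 and 23.4 CPM in inhibitory nuclei, at 34.2 and 32.7 CPM in astrocyte-like nuclei and at 17.6 CPM (12.2 to 24.4) and 22.6 CPM (18.1 to 27.8) in oligodendrocyte-like ones. The order of these classes was the same in both bands except that excitatory and inhibitory nuclei changed places, and the intervals of neighbouring classes overlapped. Ratios between classes were not all within counting error. The oligodendrocyte-like level was 0.51-fold (0.32 to 0.83) and 0.69-fold (0.50 to 0.97) the astrocyte-like one. Inhibitory over excitatory nuclei gave log2 0.27 (0.05 to 0.48) and -0.12 (-0.38 to 0.13). Of the UMIs of both paralogs, NDE1 made up 78.0% (70.7 to 84.2%) and 76.6% (72.1 to 80.8%) in oligodendrocyte-like nuclei, and 1.64% (0.899 to 2.74%) and 0.814% (0.352 to 1.60%) in excitatory nuclei. The NDEL1 band ratio in excitatory nuclei was 0.17 (0.03 to 0.30), and 0.028 with the mix of subclusters held fixed. The NDE1 share is read between classes only, since capture can differ between the transcripts of different genes.

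**Figure D1:**
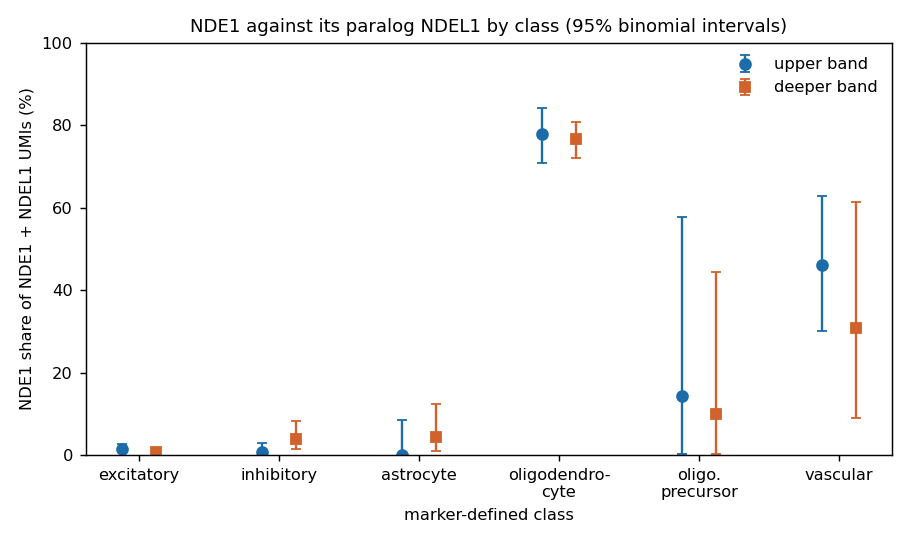
Share of NDE1 among the UMIs of NDE1 and NDEL1 (y axis, percent) for 6 marker-defined classes (x axis) in the upper (circles) and deeper band (squares), with 95% exact binomial intervals. The oligodendrocyte-like class stands at 78.0% and 76.6%, both neuron classes lie below 5%, and the precursor and vascular intervals are wide because few UMIs were counted.

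MYH11, a smooth muscle myosin gene, and MARF1 are the rows on either side of NDE1 in RefSeq's ferret table (assembly ASM1176430v1.1), and whether the counting used strand is not given in the sources used here. MYH11 was also higher in oligodendrocyte-like nuclei, at 11.05 and 14.98 CPM against 0.485 and 0.599 CPM in excitatory nuclei, on 22 and 59 UMIs. It was highest in vascular-like nuclei, at 69.5 and 16.9 CPM on 40 and 4 UMIs, where NDE1 had 18 and 4. MARF1 was spread over classes, at 70.8 and 71.9 CPM in oligodendrocyte-like and 43.9 and 46.3 CPM in excitatory nuclei. Reads of NDE1 and of a neighbour could not be told apart further with these files. Among 7528 genes compared over 46 cluster-by-band profiles of 25 clusters, those most like NDE1 were LPAR1 (Pearson r of log2(CPM + 1) 0.962), CP (0.959) and MOBP (0.955). The profiles share 2 libraries, and the correlations are a description.

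PAFAH1B1 (ENSMPUG00000012856) was present in every class, and over each whole neuron class its band difference was within counting error. In excitatory nuclei it stood at 184 CPM (180 to 189) and 186 CPM (181 to 190), a log2 ratio of 0.01 (-0.04 to 0.06). In inhibitory nuclei the levels were 218 CPM (208 to 228) and 211 CPM (200 to 223), a ratio of -0.04 (-0.15 to 0.06). Deep-layer-like excitatory nuclei alone stood at 183 and 205 CPM, a ratio of 0.16 (0.03 to 0.30). The subcluster of that kind led by RXFP1 and BMPR1B had a ratio of 0.26 (0.04 to 0.47). That was the highest of 14 excitatory subclusters with at least 50 nuclei in each band, and the only 1 with an interval clear of 0. Oligodendrocyte-like nuclei had more, 324 CPM (299 to 350) and 307 CPM (290 to 325), above the excitatory level by log2 0.81 (0.69 to 0.93) and 0.73 (0.64 to 0.82). Their precursors stood at 158 CPM (120 to 204) and 191 CPM (154 to 235), and the mature class exceeded them 2.05-fold (1.57 to 2.72) and 1.61-fold (1.2995 to 2.01). In the astrocyte-like class it was 176 CPM (153 to 201) and 171 CPM (153 to 190), close to the excitatory level. The band ratio was -0.04 (-0.29 to 0.21) there and -0.08 (-0.21 to 0.06) in the whole oligodendrocyte-like class. It was clear of 0 in the NEK2-led oligodendrocyte-like cluster, at -0.20 (-0.39 to -0.01). The same held for the unnamed cluster led by ABCA9 and EGFLAM, at -0.48 (-0.80 to -0.16), and for vascular-like nuclei, at 0.47 (0.05 to 0.89). After thinning, a PAFAH1B1 UMI was seen in 41.2% and 37.4% of oligodendrocyte-like and in 23.9% and 25.01% of excitatory nuclei. The unthinned shares, 51.9% and 43.1% against 83.0% and 82.2%, have the opposite order, at the depths given above, and no order is read from them.

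Over the 15 pairs of the 6 genes, the highest correlation over the 46 profiles was that of PAFAH1B1 with NDE1, at r = 0.79. The lowest was that of NDE1 with MAP1B, at r = -0.49. Across excitatory subclusters with at least 50 nuclei PAFAH1B1 spanned only 174 to 199 CPM, a range of 1.15-fold, while FLNA spanned 5.80-fold.

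**Figure D2:**
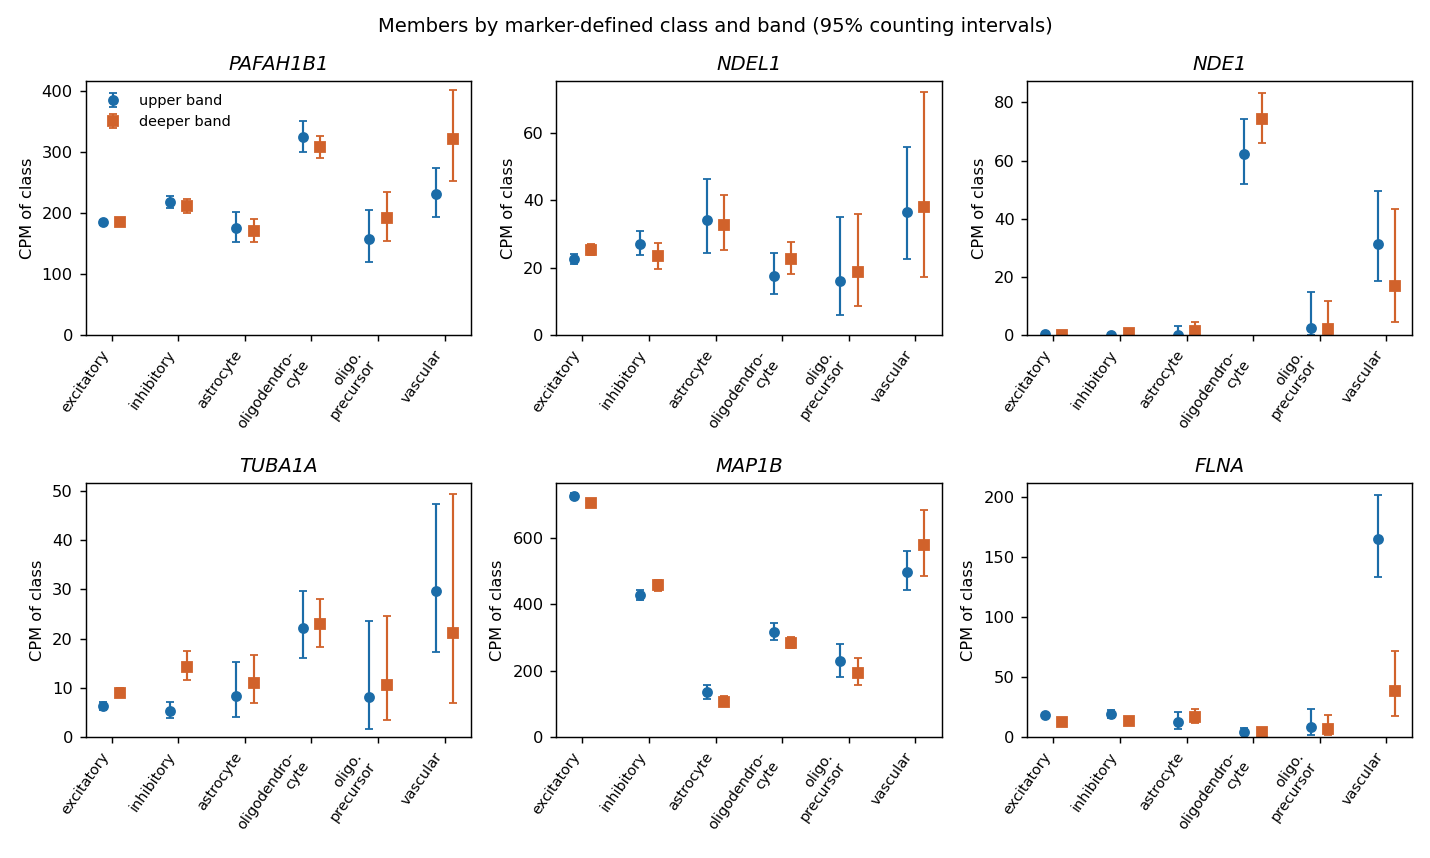
CPM (y axis, linear, from 0, a scale of its own in each panel) of the 6 genes in 6 marker-defined classes (x axis), upper band as circles and deeper band as squares, with 95% Poisson intervals. NDE1 peaks in the oligodendrocyte-like class, MAP1B in the excitatory class and FLNA in the vascular-like class, while PAFAH1B1 and NDEL1 are spread over all of them. Microglia-like nuclei are left out because they held at most 35 UMIs of any of the 6 genes in a band.

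TUBA1A (ENSMPUG00000019643) was the only one of the 6 that was higher in the deeper band in both neuron classes. It had 442 and 836 UMIs over all barcodes. In inhibitory nuclei it stood at 5.28 CPM (3.85 to 7.07, 45 UMIs) and 14.3 CPM (11.5 to 17.6, 91 UMIs), a log2 ratio of 1.44 (0.91 to 1.99). The intervals of both bands do not overlap, and the ratio lies at the 99.9th percentile of the 11915 genes measured in that class. In excitatory nuclei the levels were 6.25 CPM (5.47 to 7.11) and 9.02 CPM (8.09 to 10.0), a ratio of 0.53 (0.28 to 0.77), at the 94.7th percentile of 15557 genes. In glia the levels were 8.33 and 11.1 CPM in astrocyte-like and 22.1 CPM (16.1 to 29.7) and 22.9 CPM (18.4 to 28.1) in oligodendrocyte-like nuclei, with ratios of 0.41 (-0.73 to 1.65) and 0.05 (-0.49 to 0.60), neither of them distinguishable from 0 at this depth.

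The TUBA1A ratio was above 0 in each named kind of neuron, though not always clear of counting error. Inhibitory nuclei resembling those of the medial ganglionic eminence (MGE, the source of somatostatin and parvalbumin cells) had 3.77 and 12.04 CPM, a ratio of 1.68 (0.82 to 2.59). Those resembling the caudal eminence (CGE) had 10.0 and 18.2 CPM, a ratio of 0.86 (-0.07 to 1.83). The MGE-like subcluster led by GLI2 and GABRG1 held 1 of the 17 upper-band and 16 of the 40 deeper-band UMIs of that kind. Its ratio was 3.73 (1.05 to 9.12). In the MGE-like subcluster led by TFCP2L1 and CASQ2 the ratio was -0.56 (-4.14 to 2.57), on 3 and 2 UMIs. Of 4 inhibitory subclusters with at least 50 nuclei in each band, 3 were higher in the deeper band and 1 lower. The interval of only 1 was clear of 0. Among excitatory nuclei the ratio was 0.41 (0.08 to 0.76) in upper-layer-like, 0.58 (-0.13 to 1.26) in deep-layer-like and 0.86 (0.30 to 1.41) in unnamed subclusters. Of 14 excitatory subclusters with at least 50 nuclei in each band, 13 were higher in the deeper band, though the interval of only 1 was clear of 0. When nuclei of both libraries were split into 4 groups by depth, equal in size over both libraries together, the ratio was above 0 in each, from 0.35 to 0.63 in excitatory and from 0.99 to 1.61 in inhibitory nuclei.

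Ribosomal protein genes also differed between the libraries. The summed level of 33 of them was higher in the deeper band by log2 0.31 (0.29 to 0.33) in excitatory, 0.38 (0.33 to 0.43) in inhibitory, 0.38 (0.28 to 0.47) in astrocyte-like and 0.35 (0.28 to 0.41) in oligodendrocyte-like nuclei. TUBA1A had a ratio of 0.05 (-0.49 to 0.60) in the last of these. The ribosomal ratio was 0.45 (0.28 to 0.63) in precursor-like, 0.23 (-0.04 to 0.51) in microglia-like and -1.16 (-1.30 to -1.03) in vascular-like nuclei. The part of these genes in the TUBA1A result was not tested. The genes most like TUBA1A over the cluster profiles were MIF (r = 0.76), SEC62 (0.73) and PSMA7 (0.72). The alpha-tubulin rows carrying a symbol were TUBA1A, TUBA4A, TUBA8 and TUBAL3. The near-identical paralogs TUBA1B and TUBA1C had no row under those symbols, and TUBA1A is not in the RefSeq table used, so its counts are uncertain where reads could belong to a paralog.

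**Figure D3:**
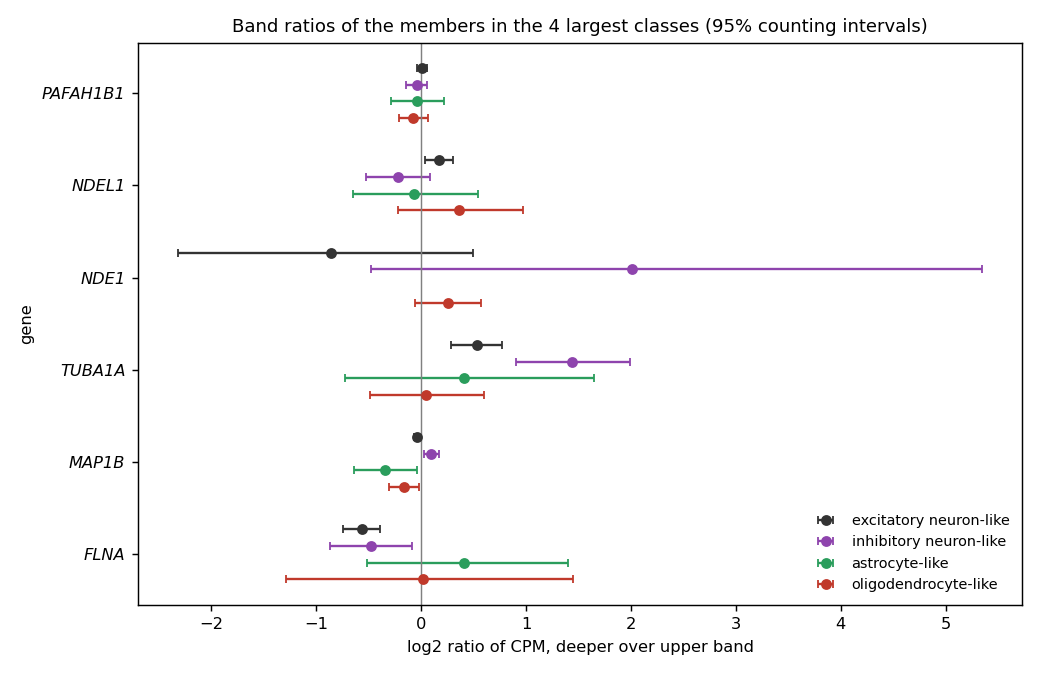
Log2 ratio of CPM, deeper over upper band (x axis), for the 6 genes (y axis) in the 4 largest classes (colours), with 95% exact intervals; the vertical line marks equal levels. TUBA1A lies to the right in both neuron classes (0.53 and 1.44), FLNA lies to the left in both (-0.57 and -0.48), and PAFAH1B1 straddles 0 in all 4 classes.

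FLNA (ENSMPUG00000009293) was lower in the deeper band in both neuron classes. In excitatory nuclei it stood at 17.97 CPM (16.6 to 19.4, 667 UMIs) and 12.1 CPM (11.04 to 13.3, 465 UMIs), a log2 ratio of -0.57 (-0.74 to -0.40). In inhibitory nuclei the levels were 19.0 CPM (16.2 to 22.2) and 13.7 CPM (10.9 to 16.9), a ratio of -0.48 (-0.87 to -0.09). The excitatory ratio stayed between -0.61 and -0.45 in all 4 depth groups, but it was -0.075 when the mix of subclusters was held fixed and -0.22 (-0.72 to 0.28) after thinning.

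FLNA differed between kinds of excitatory neuron more than between bands. Deep-layer-like nuclei stood at 22.3 CPM (19.4 to 25.4) and 19.6 CPM (14.8 to 25.5), while the upper-layer-like level was 11.2 CPM (9.56 to 13.03) and 10.8 CPM (9.72 to 12.1). The upper-layer-like level was lower by log2 -0.99 (-1.29 to -0.69) in the upper band and -0.85 (-1.27 to -0.42) in the deeper band. Within each of these kinds the band ratio was near 0, -0.18 (-0.63 to 0.25) and -0.05 (-0.32 to 0.23), while the unnamed subclusters differed by -0.49 (-0.88 to -0.11). The bands held these kinds in unlike numbers, 960 and 290 deep-layer-like against 1239 and 2792 upper-layer-like nuclei. The largest cluster of the class also differed between bands. In the upper band it was led by FOXP2 and SYT6 (17.1% of the class, against 3.46% in the deeper band). In the deeper band it was led by SYT10 and PAPSS2 (29.7%, against 6.16% in the upper band). Over both bands FLNA ran from 5.34 CPM in the subcluster led by MME and PDGFD to 31.0 CPM in the unnamed one led by IQCA1L and CACHD1, whose 162 nuclei had, at the median, 1.81 times the depth of the median excitatory nucleus of their library.

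Among inhibitory nuclei FLNA was higher in MGE-like (22.2 and 12.3 CPM) than in CGE-like nuclei (12.98 and 6.75 CPM), by log2 0.77 (0.09 to 1.51) and 0.87 (-0.15 to 2.03). The band ratio in MGE-like nuclei was -0.84 (-1.41 to -0.31), on 100 and 41 UMIs. In inhibitory nuclei of unnamed kind it was 0.42 (-0.27 to 1.104), on 40 and 36 UMIs, and their subcluster led by NDNF and SEMA3C (75 and 27 nuclei) had 1.51 (0.33 to 2.69), on 14 UMIs in each band. Oligodendrocyte-like nuclei had the lowest FLNA level of the classes, 4.02 CPM (1.73 to 7.92) and 4.06 CPM (2.32 to 6.598), and astrocyte-like nuclei stood at 12.5 and 16.6 CPM.

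The highest FLNA level was in vascular-like nuclei, at 165 CPM (134 to 202, 95 UMIs) in the upper band and 37.98 CPM (17.4 to 72.1, 9 UMIs) in the deeper band, and their log2 ratio was -2.12 (-3.29 to -1.14). With a minimum of 1000 genes that ratio was -1.37 (-3.04 to -0.08), the smallest of 7 alternatives. With 2 times as many doublets removed it was -4.05 (-9.38 to -1.51), and the vascular-like level in the deeper band then stood above the excitatory one by only log2 0.047 (-5.26 to 2.53). These nuclei were shallow, with medians of 1173 and 1119 UMIs, and their cluster was led by APOA1 and ITIH4 and also held DCN, a fibroblast marker. Their makeup differed between bands: endothelial markers summed to 1600 and 2444 CPM, mural markers to 309 and 439 CPM and fibroblast markers to 349 and 165 CPM (3 of 4 seen, with COL1A1 at 0 in both). Neuronal transcripts that should be absent stood at 39.2% and 65.5% of their excitatory level, and ribosomal protein genes at 5042 and 2254 CPM. The part of each in the FLNA ratio was not tested.

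**Figure D4:**
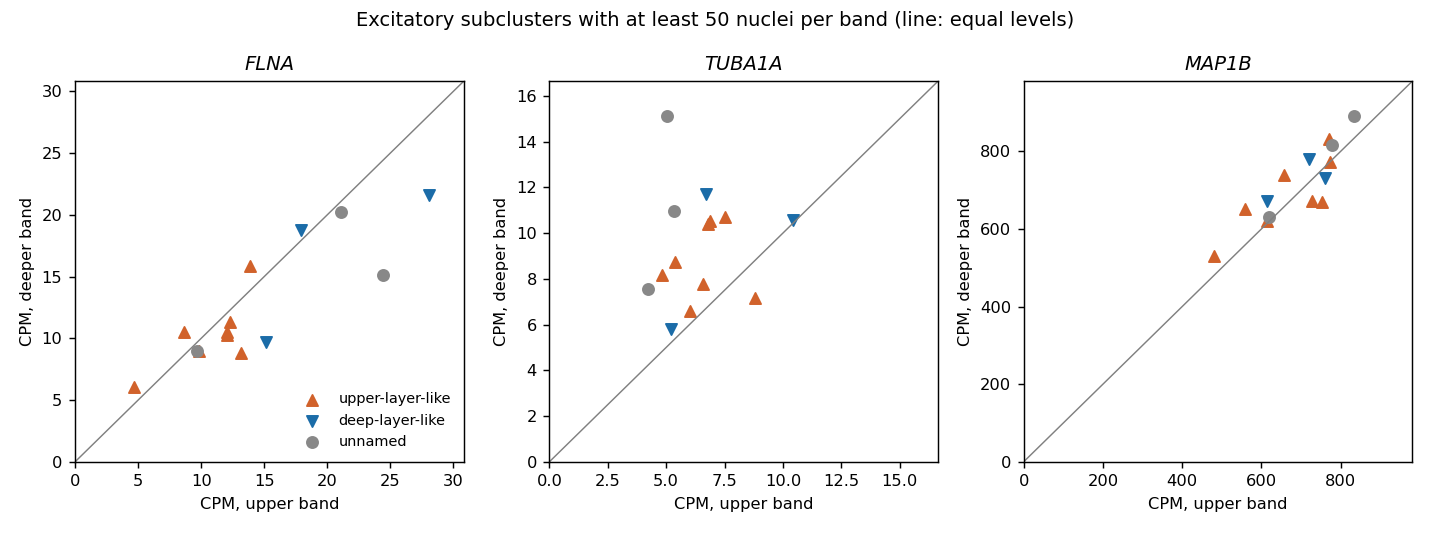
Upper-band (x axis) against deeper-band level (y axis), in CPM, of FLNA, TUBA1A and MAP1B in the 14 excitatory subclusters with at least 50 nuclei in each band, with triangles for named layers and circles for unnamed ones; the line marks equal levels. FLNA points spread along the line with deep-layer-like subclusters further right, 13 of 14 TUBA1A points lie above it, and MAP1B points stay near it.

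MAP1B (ENSMPUG00000014406) was the most frequently counted of the 6, with 40264 and 46700 UMIs, and it was higher in neurons than in most glia. It stood at 726 CPM (718 to 735) and 706 CPM (697 to 714) in excitatory nuclei and at 429 CPM (415 to 443) and 458 CPM (442 to 475) in inhibitory nuclei. Oligodendrocyte-like nuclei had 318 CPM (294 to 344) and 284 CPM (267 to 301), their precursors 228 and 193 CPM, and astrocyte-like nuclei 136 CPM (116 to 158) and 107 CPM (93.2 to 122). Vascular-like nuclei had 499 and 578 CPM, beside the neuronal transcripts given for them above, whose part in this level was not tested. The astrocyte-like level was 18.7% and 15.2% of the excitatory one, while 6 neuronal genes used to gauge free RNA stood at 10.96% and 10.6% there. In oligodendrocyte-like nuclei MAP1B was at 43.8% and 40.2% and those genes at 13.7% and 12.7%. Inhibitory MGE-like nuclei exceeded CGE-like ones by log2 0.38 (0.24 to 0.51) and 0.42 (0.28 to 0.56).

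The MAP1B band ratios were small and differed in sign between classes. They were -0.04 (-0.07 to -0.02) in excitatory and 0.10 (0.03 to 0.17) in inhibitory nuclei, -0.34 (-0.64 to -0.04) in astrocyte-like and -0.16 (-0.31 to -0.02) in oligodendrocyte-like nuclei. The excitatory sign turned, to 0.0068, under median-of-ratios scaling and to 0.040 with the subcluster mix held fixed. Upper-layer-like and deep-layer-like nuclei each gave a ratio above 0, at 0.04 (0.01 to 0.07) and 0.12 (0.05 to 0.19). The unnamed subclusters gave one below 0, at -0.08 (-0.13 to -0.02). Of 14 excitatory subclusters with at least 50 nuclei in each band, 10 were higher in the deeper band and 4 lower. The intervals of 5 lay above 0 and those of 2 below it. Like FLNA, MAP1B was highest in the subcluster led by IQCA1L and CACHD1, at 980 CPM, and lowest in the one led by MME and PDGFD, at 505 CPM.

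Counted against a log2 ratio of 0.5, with at least 50 UMIs over both bands, 5 of the 6 genes were measured in excitatory nuclei. TUBA1A was past it upward and FLNA downward, against 5.85% of all 15557 genes higher and 9.75% lower. In inhibitory nuclei 1 of 5 was higher (TUBA1A, background 5.28%) and 0 were lower (4.94%). In astrocyte-like nuclei 0 of 3 were past it (7.54% of genes higher and 6.03% lower), in oligodendrocyte-like nuclei 0 of 5 (5.83% and 4.52%), and in precursor-like nuclei 0 of 2 (7.41% and 6.44%). The median ratio in excitatory nuclei was 0.01 for the 5 genes and -0.03 for all genes.

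Other genes of these pathways were described by the same count in excitatory nuclei, where 5.85% of all 15557 genes were higher and 9.75% lower. Of 22 dynein subunits and LIS1 partners, 0 were higher and 1 was lower (DISC1, a scaffold that binds NDEL1, at 10.5 and 4.93 CPM, log2 -1.09, -1.35 to -0.84), with a median of -0.04. NUDC, a LIS1-binding chaperone, had the highest ratio there at 0.40 (0.29 to 0.51), and CDK5R1, an activator of the kinase CDK5, was next at 0.33 (-0.27 to 0.93). BICD1, a dynein cargo adaptor, was lower by -0.29 (-0.32 to -0.26).

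Of 10 measured tubulins and tubulin cofactors, 5 were higher and 0 lower, against 5.85% and 9.75% of all genes, with a median of 0.33. They were TUBB4A (16.1 and 31.7 CPM, log2 0.98, 0.83 to 1.12), TUBB4B (19.3 and 35.4 CPM, 0.88, 0.75 to 1.01), TUBB2B (0.68), TUBA4A (0.63) and TUBA8 (0.55), the last 3 named after their values were seen because the count is small. All 5 are tubulins. The cofactor TBCD (-0.10, -0.15 to -0.05) and the gamma-tubulin complex gene TUBGCP2 (-0.17, -0.25 to -0.10) had the lowest ratios. In inhibitory nuclei 3 of 10 were higher (5.28% of all genes), TUBB4A, TUBB2B and TUBB4B at 0.79, 0.71 and 0.68. TUBGCP6 was lower at -0.73 (4.94% of all genes were lower). In astrocyte-like nuclei 2 of 6 (7.54% of all genes) and in oligodendrocyte-like nuclei 1 of 7 (5.83%) were higher. In neither were any lower, against 6.03% and 4.52% of all genes. The ribosomal protein genes were also higher in the deeper band, as given above, and their part was not tested. After thinning the count was 2 in place of 5.

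Of 22 microtubule-associated proteins 1 was higher, STMN1 (a tubulin-binding stathmin, 80.5 and 132 CPM, 0.72, 0.65 to 0.78), and 0 were lower. MAP7, a kinesin cofactor, followed at 0.34 (0.31 to 0.38), and STMN2 (-0.34, -0.39 to -0.30) and the DCX relative DCLK2 (-0.27, -0.34 to -0.20) were at the other end. Of 18 filamin and actin partners 2 were higher, the actin-severing cofilin CFL1 (1.105 and 2.63 CPM, 1.25, 0.72 to 1.81) and the actin gene ACTB (0.69, 0.52 to 0.86), and 0 lower. The actin-capping gene CAPZB had a ratio of -0.09 (-0.15 to -0.03). Beside the counts of both lists, 5.85% of all genes measured in excitatory nuclei were higher and 9.75% lower.

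Of 22 other lissencephaly and heterotopia genes 0 were higher and 4 lower, against 5.85% and 9.75% of all genes. DCHS1, a protocadherin (1.56 and 0.495 CPM, -1.66, -2.49 to -0.89), had the lowest ratio, on 58 and 19 UMIs. RELN (-0.71) and LAMA2 (-0.52), named after their values were seen, were also among the lower ones. NEDD4L, a ubiquitin ligase (0.20, 0.18 to 0.22), and EML1, a microtubule-binding protein (0.17, 0.12 to 0.21), had the highest ratios.

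**Figure D5:**
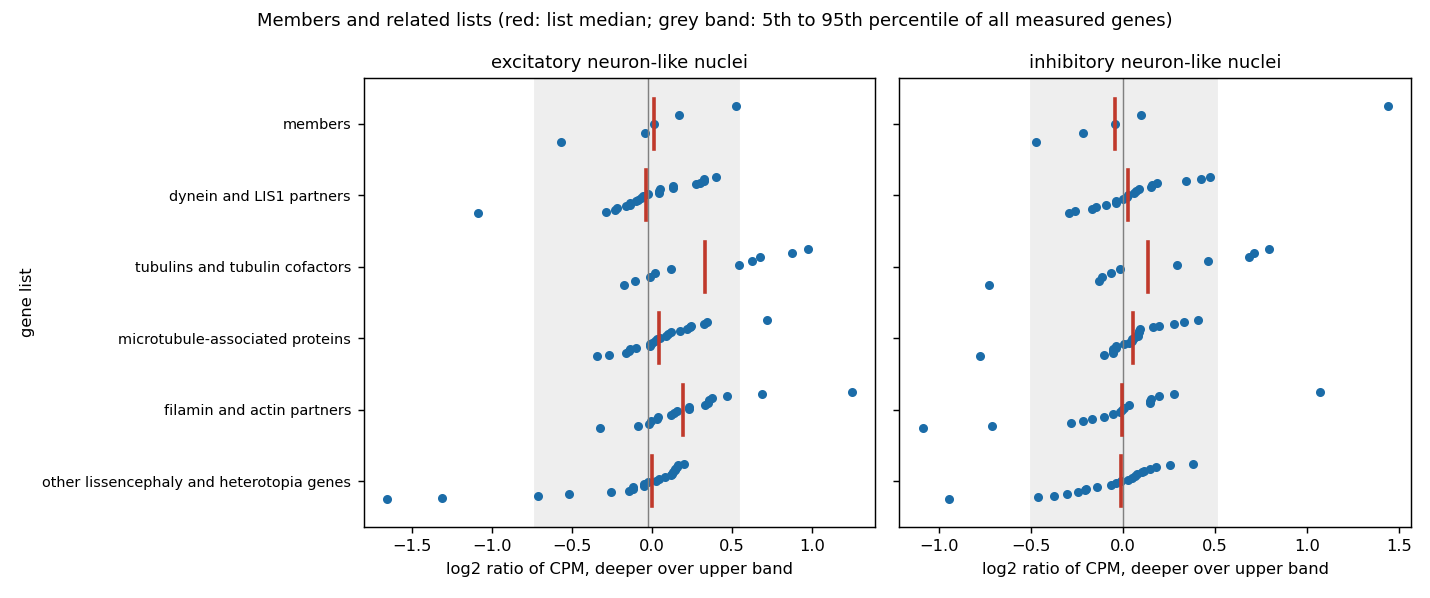
Log2 ratio of CPM, deeper over upper band (x axis), for each measured gene (points) of the 6 genes ("members") and 5 related lists (y axis), in excitatory and inhibitory neuron-like nuclei; red bars are list medians and the grey band holds the 5th to 95th percentile of all measured genes. In excitatory nuclei 5 of the 10 tubulin-list genes lie past 0.5, while the LIS1 partners other than DISC1 stay within -0.29 and 0.40.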

How the data were processed

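For each of 2 libraries the authors deposited a matrix of UMI counts per gene and barcode, not normalized, per the file headers. The header gives software version 3.1.0, and the submitters' processing notes name Cell Ranger 6.2.1 and 2.1.1. Build, annotation, intronic counting and strand are not given in the sources used here, so no coordinates are printed. The matrices held 7151 and 9694 barcodes with 66253015 and 78352064 UMIs.

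Nuclei with at least 500 genes were kept (7091 and 9608). Scrublet (scanpy 1.11.5) removed 843 (11.9%) and 1397 (14.5%) as doublets, against expected rates of 5.67% and 7.69%. Free RNA was not corrected. Counts scaled to 10000, 2000 variable genes, 30 principal components and 15 neighbours entered Leiden clustering at resolution 1, which gave 28 clusters, 25 of them named. The 6 genes and the related lists (104 rows) were kept out. Excitatory and inhibitory nuclei were clustered again. A marker counted as raised at 1/3 of its highest cluster level and a UMI in at least 10% of nuclei. Clusters were named for the class raising the most markers. No name was given where fewer than 3 were raised, classes tied, 5 foreign markers were raised 2-fold, foreign markers outnumbered its own in the top 10 genes, or depth was low and those genes held none of its own. This scoring was set with clusters of these data known.

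UMIs were summed per class and library and expressed as CPM, with exact Poisson intervals. Log2 ratios carry exact conditional binomial intervals and shares Clopper-Pearson intervals, all at 95%. With 1 library per band no test was run. The interval code was tested on simulated data. The 6 genes, the lists and the depth groups were chosen with earlier results of these data known. Named genes were all 6, in each list the 2 highest and 2 lowest excitatory ratios among genes with at least 50 UMIs, and the 3 genes likest each of the 6 (mean of at least 10 CPM). Results for 2 list genes are not reported here. Alternatives were doublet removal, a minimum of 1000 genes, per-nucleus CPM, scaling, thinning to 1500 UMIs, Leiden resolution, clustering each library alone, clustering with the 6 genes and lists, and a fixed subcluster mix.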

Additional observations from a re-analysis of the deposited data

Results flagged for a closer look

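The band ratio of MAP1B took opposite directions in different classes. The log2 ratio, deeper over upper band, was 0.10 in inhibitory neuron-like nuclei and -0.041 in excitatory neuron-like, -0.34 in astrocyte-like and -0.16 in oligodendrocyte-like nuclei, each from 1 library per band, and the difference between classes was not tested. The excitatory value changed sign under median-of-ratios scaling and with the subcluster mix held fixed.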

How the results depend on the processing

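Of 240 band ratios of the 6 genes recomputed in the 4 largest classes, 233 stayed within the counting interval and 7, all in excitatory nuclei, did not. A ratio could change sign within its interval, as that of NDEL1 in inhibitory nuclei did (-0.22, up to 0.069). With the subcluster mix held fixed the ratio of NDEL1 was 0.028 (from 0.17), of MAP1B 0.040 (the other sign) and of FLNA -0.075. After thinning MAP1B gave -0.0036 and FLNA -0.22. MAP1B gave -0.016 from per-nucleus CPM and 0.0068, the other sign, under median-of-ratios scaling, which shifts excitatory ratios by 0.05. The list counts in excitatory nuclei were recomputed under doublet removal, the gene minimum, per-nucleus CPM, scaling and thinning only. Of these, they moved only on thinning, to 2 dynein partners lower, 2 tubulins and 0 filamin partners higher, and 1 higher and 2 lower among the other lissencephaly genes. They were not recomputed with the subcluster mix held fixed, at other Leiden resolutions or in the alternative clusterings, so their dependence on these is not known. Of 626 recomputed contrasts with excitatory nuclei, 35 moved past the counting interval with the same sign and 4 moved past it with the other sign. Sign changes within the interval are not among these 4. They were NDEL1 in inhibitory nuclei of the upper band (-0.076 thinned), PAFAH1B1 in vascular-like nuclei of the upper band (-0.10, median-of-ratios) and MAP1B in vascular-like nuclei of the deeper band (0.44 with 2 times as many doublets removed, 0.39 thinned). The cause of these changes was not tested. The ratio of TUBA1A ranged from 0.29 to 0.58 in excitatory and from 1.28 to 1.83 in inhibitory nuclei over 11 alternatives, and that of NDE1 in oligodendrocyte-like nuclei from 0.22 to 0.40 over 10. No paired analysis was possible because each band has 1 library, and leaving out a library would leave no comparison. Depth limits NDE1 in precursor-, vascular- and astrocyte-like nuclei and all 6 genes in microglia-like nuclei.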
